A study of Homo sapiens with 6 samples.

Results

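The metallothioneins, the metal sensor MTF1 and the zinc transporters of the SLC30A and SLC39A families are 33 of the 58219 gene identifiers counted in SNU-387 cells. They comprise 8 metallothionein genes, MTF1, 10 SLC30A genes and 14 SLC39A genes. The genes were chosen by name with their values in the comparison of shYES1 with shNT already known, and no threshold was set. That comparison is therefore given as a description, without p-values of their own, and supports nothing by itself. SNU-387 is an established human hepatocellular carcinoma line. The controls stably express a short hairpin RNA with no target (shNT, 3 libraries) and the other cells a hairpin against the tyrosine kinase gene YES1 (shYES1, 3 libraries). No metal, drug or other treatment is named for either group, and the sources used here do not give the number of hairpins, clones or cultures behind the libraries, so p-values measure spread among libraries that may be technical repeats. Poly(A) RNA was sequenced from whole cultures, where fewer cells of a type and less RNA per cell cannot be told apart.

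Zinc is a structural or catalytic part of many proteins, and cells keep its free concentration very low. Metallothioneins are small cysteine-rich proteins that bind zinc, copper and cadmium. Free zinc activates MTF1, a transcription factor that binds metal response elements in metallothionein promoters and in that of the exporter gene SLC30A1. SLC30A proteins (ZnT) move zinc out of the cytosol, across the surface or into organelles, and SLC39A proteins (ZIP) move it into the cytosol. In liver, metallothioneins and SLC39A14 are known to be induced in the acute-phase response.

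In shYES1 cells summed metallothionein RNA was 2.27-fold lower, while MTF1 and its target SLC30A1 were modestly higher. Among transporters, the largest falls were in the importers SLC39A8, SLC39A14 and SLC39A1 and in SLC30A7, SLC30A4 and SLC30A5, which act on the secretory pathway and vesicles. SLC39A6 and SLC39A3 rose slightly, and SLC30A6, SLC30A9 and SLC39A10 had nearly equal levels in both groups.

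Depth was 11290889 to 18944148 gene reads per library. Libraries of a group correlated across genes at 0.994 to 0.996 and libraries of different groups at 0.969 to 0.970 (Pearson, log2 CPM; genes are not independent replicates). Levels are in CPM, a gene's read count relative to its library's total after TMM scaling, and a gene was called at an adjusted p under 0.05 in edgeR's quasi-likelihood test across all 14239 genes that passed the low-count filter. The targeted gene YES1 stood at 178, 181 and 180 CPM in shNT and at 42.9, 43.3 and 46.0 CPM in shYES1, a 4.06-fold fall (log2 fold change -2.02, SE 0.0371). Of 9 hepatocyte markers, 6 had at most 3 reads in every library, ALB, TTR and HNF4A among them, and SERPINA1 was the highest (19.2 ± 1.34 CPM in shNT and 16.9 ± 1.17 in shYES1, SD, n = 3). SERPINA1 was called lower though its groups overlap, and TF was called higher without overlap (2.46 ± 0.305 and 3.41 ± 0.237 CPM). The keratin genes KRT8 and KRT18 and the collagen genes COL1A1 and COL1A2 were abundant in both groups, while the epithelial genes KRT19 and CDH1 had at most 6 reads in a library and the T cell gene CD3E none. Summed mesenchymal markers ranged from 6116 to 6455 CPM in shNT and from 6725 to 6852 CPM in shYES1, with VIM, DCN and LUM lower and both collagen genes higher, and summed epithelial markers from 764 to 774 and from 1070 to 1091 CPM. Summed leukocyte markers, nearly all CD14, were at 42.7 to 46.4 and 37.1 to 40.05 CPM and endothelial markers at 24.8 to 25.6 and 23.0 to 23.5 CPM. Of the 3 endothelial markers PECAM1 was lower (13.9 ± 0.525 and 11.2 ± 0.630 CPM), VWF higher (0.351 ± 0.149 and 1.44 ± 0.218 CPM) and CDH5 not called. VWF passed the low-count filter only through its shYES1 libraries, where it is high. The part of these shifts in the results below was not tested.

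Of the 33 genes, 25 passed the low-count filter. In shYES1, 5 of these were called higher, 14 were called lower and 6 were not called. Across all tested genes 65.3% were called, 32.5% higher (4623) and 32.8% lower (4676); scaling by library size made the split 5799 to 3762, and TMM factors from genes lacking CCTTTC in their 3′ UTRs, an alternative chosen after seeing the data, 3560 to 5710. Since the choice of genes used this comparison, the share of 76.0% among the 25 is a description only. Their median log2 fold change was -0.32, against -0.00469 for all tested genes. A fall of at least 0.5 on the log2 scale was called for 12 of the 25 and for 16.8% of all tested genes, and no member rose that far, against 11% of all tested genes. The groups did not overlap for 19 of the 25 genes and for 67.9% of all tested genes. The other 8 genes (MT1H, SLC30A2, SLC30A3, SLC30A8, SLC30A10, SLC39A2, SLC39A5 and SLC39A12) had at most 4 reads in any library. SLC30A2, which loads zinc into secretory vesicles in the mammary gland, and SLC30A8, the zinc transporter of insulin granules, had no read on the counted strand in any library, which allows up to 0.153 to 0.257 CPM depending on the library (3 reads, counting error only). On the opposite strand SLC30A8 had 5 to 8 reads per library.

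The 8 metallothionein genes lie in 76 kb of chromosome 16 (GRCh38, 56608199 to 56684196), all on the plus strand except MT1G. RefSeq promoter windows were found for 25 of the 33 genes. None was found for MT1A, MT1E, MT1F, MT1G, MT1M, SLC30A8, SLC39A4 or SLC39A14, so most of the metallothioneins that fell were not searched. The 250 bases before RefSeq's annotated start are shown for MT2A, MT1X and SLC30A1, known targets of MTF1 that moved in opposite directions. MT2A was the most abundant metallothionein, and MT1X the other expressed here with a window. RefSeq's starts differ from the gene starts in GENCODE release 29, which are 56608199 for MT2A, 56682424 for MT1X and 211578742 for SLC30A1. The MT2A window thus lies inside the GENCODE gene, and the MT1X window runs past the GENCODE start. For SLC30A1 the bases next to the GENCODE start were not searched. The sequences are RefSeq's (GRCh38.p14), 5′ to 3′ on the gene's strand, and capitals mark matches to the metal response element core, searched as TGCACNC or TGCGCNC on both strands; no matches overlapped.
MT2A, chr16:56608334-56608583, plus strand: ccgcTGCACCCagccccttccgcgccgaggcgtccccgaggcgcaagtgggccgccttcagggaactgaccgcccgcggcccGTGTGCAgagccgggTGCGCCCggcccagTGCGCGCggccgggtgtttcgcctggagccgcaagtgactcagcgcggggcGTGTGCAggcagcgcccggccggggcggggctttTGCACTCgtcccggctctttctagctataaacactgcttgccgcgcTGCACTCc
MT1X, chr16:56682220-56682469, plus strand: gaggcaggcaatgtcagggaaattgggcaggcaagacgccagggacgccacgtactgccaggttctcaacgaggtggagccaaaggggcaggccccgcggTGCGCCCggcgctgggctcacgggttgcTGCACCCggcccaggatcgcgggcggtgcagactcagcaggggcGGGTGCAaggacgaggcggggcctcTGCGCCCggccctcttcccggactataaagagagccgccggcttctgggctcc
SLC30A1, chr1:211579162-211579411, minus strand: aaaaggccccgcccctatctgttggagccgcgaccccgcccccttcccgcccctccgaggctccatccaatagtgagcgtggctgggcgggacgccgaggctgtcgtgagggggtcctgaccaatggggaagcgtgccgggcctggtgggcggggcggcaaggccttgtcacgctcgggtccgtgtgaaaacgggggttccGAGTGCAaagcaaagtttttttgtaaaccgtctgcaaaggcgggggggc

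The MT2A window held 7 cores, MT1X 4 and SLC30A1 1. MT1H, nearly silent in these cells, held 8, and the MTF1 window held none. Among all 35116 RefSeq windows of this length, 24.8% held at least 1 core, 6.48% at least 2, 0.370% at least 4 and 0.0513% at least 6. At least 1 core was present in 14 of the 34 windows of the listed genes (41.2%). Transporter genes with 1 core in a window included SLC30A4, SLC39A1 and SLC39A8, which fell, and SLC39A3, SLC39A6 and SLC39A13, which were called higher. SLC30A6 also held 1 and was not called. No core was found for SLC30A5, SLC30A7, SLC39A7 and SLC39A9, which fell, or for SLC30A9, SLC39A10 and SLC39A11, which were not called. A match of these letters does not show binding.

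**Figure D1:**
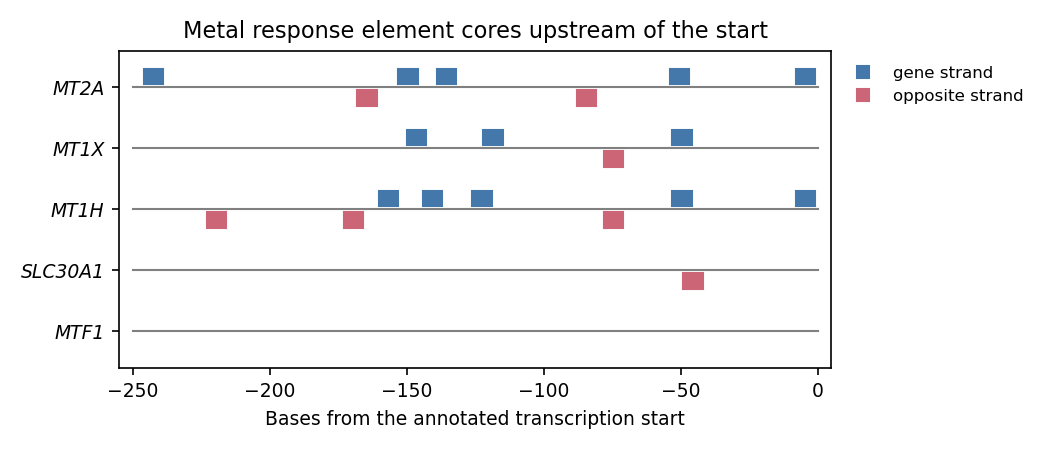
Matches to the metal response element core in the 250 bases before RefSeq's annotated start (horizontal axis, bases from the start) of MT2A, MT1X, MT1H, SLC30A1 and MTF1, 1 row per gene. Blocks above the line are on the gene's strand and blocks below it on the opposite strand: 7 in MT2A, 4 in MT1X, 8 in MT1H, 1 in SLC30A1 and none in MTF1.

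Of the 8 metallothionein genes 7 were tested, 6 fell and 1 was not called. MT2A stood at 227, 211 and 224 CPM in shNT and at 93.4, 101 and 89.3 CPM in shYES1. The groups did not overlap, and the log2 fold change was -1.23 (SE 0.0355), a 2.35-fold fall. MT2A is the isoform most widely expressed across human tissues, and it held 75.1% to 77.4% of all metallothionein CPM in shNT and 73.1% to 75.9% in shYES1. MT1E, the second most abundant, was at 48.2, 47.7 and 53.9 CPM in shNT and at 27.8, 25.8 and 26.6 CPM in shYES1. Its groups were also separate, with a log2 fold change of -0.90 (SE 0.0560), and its share of metallothionein CPM was 16.4% to 18.1% in shNT and 19.5% to 21.9% in shYES1. Summed over the 8 genes, metallothionein RNA was 293, 276 and 299 CPM in shNT and 127, 133 and 122 CPM in shYES1, a ratio of 2.27.

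The other MT1 genes were expressed at under 8 CPM. MT1F was at 7.59, 6.58 and 7.73 CPM in shNT and at 0.974, 1.11 and 1.58 CPM in shYES1, with a log2 fold change of -2.53 (SE 0.177). MT1X, whose promoter is printed above, was at 6.14, 6.43 and 7.92 CPM and at 2.98, 2.48 and 2.76 CPM (-1.32, SE 0.149). The groups were separate for both genes. MT1M was at 2.02, 2.65 and 2.66 CPM in shNT and at 1.10, 1.45 and 0.919 CPM in shYES1 (-1.14, SE 0.238), again without overlap. MT1G had 18, 16 and 20 reads in shNT and 4, 1 and 3 in shYES1, or 1.45, 1.21 and 1.27 CPM against 0.243, 0.0855 and 0.153 CPM. The ratio of its summed reads, scaled for depth, was 7.78 (95% exact binomial interval 3.68 to 18.9, counting error only), and its fitted log2 fold change was -2.90 (SE 0.420). MT1G passed the low-count filter only through its shNT libraries, where it is high. It is included in the counts above of metallothioneins and members that fell, and its fall lends those counts no support. MT1A was at 0.808, 0.681 and 0.887 CPM in shNT and at 0.609, 1.03 and 0.868 CPM in shYES1. These values overlap, and the log2 fold change of 0.04 carried the SE 0.332, since only 9 to 17 reads per library lay behind it. MT1H had 0, 2 and 1 reads in shNT and none in shYES1.

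**Figure D2:**
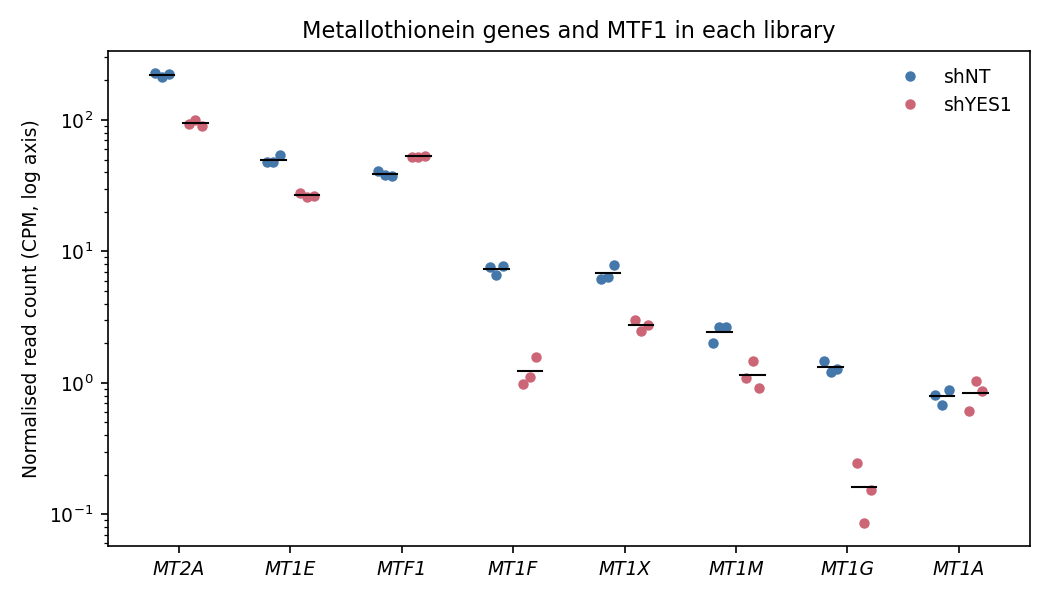
Normalised read count (CPM, logarithmic vertical axis) of MTF1 and the 7 tested metallothionein genes in each library, with shNT in blue and shYES1 in red; points are libraries and bars are means of 3. MT2A, MT1E, MT1F, MT1X, MT1M and MT1G are lower in all 3 shYES1 libraries, MTF1 is higher, and MT1A overlaps.

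Metallothionein genes resemble each other, and reads that fit several places equally are not counted. Of all stretches of 50 bases in the annotated transcripts of each gene, 97.0% were found in no other gene's transcripts for MT2A, 92.9% for MT1E, 98.8% for MT1F, 90.1% for MT1M, 94.2% for MT1A, 83.5% for MT1G and 81.7% for MT1X. At 75 bases the shares were 100% for MT2A and MT1F and 85.7% for MT1X, 321 of whose exon bases overlap a noncoding transcript on the same strand. MT1X and MT1G are the least certain of the 7, and the sources used here do not state the read length. The expressed pseudogene MT1L, not among the 33, was also lower, from 3.41 ± 0.626 to 1.95 ± 0.242 CPM (log2 fold change -0.81, edgeR adjusted p = 0.000296, n = 3 per group). None of the other 11 listed metallothionein genes and pseudogenes passed the low-count filter; MT1DP was the highest of them, at 0.202 ± 0.191 and 0.330 ± 0.0871 CPM. The brain and epithelial metallothionein genes MT3 and MT4 had no read.

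The genes around the cluster moved in both directions. Within 500 kb on either side 11 other genes were tested, and 4 rose and 7 fell, with log2 fold changes from -0.90 to 0.77 and a median of -0.18. All 11 were thus called, where 65.3% of all tested genes were, 32.5% higher and 32.8% lower. On the side before MT2A, NUDT21, a subunit of the complex that sets poly(A) sites, fell from 142 ± 1.17 to 76.0 ± 0.922 CPM (-0.90, edgeR adjusted p = 3.56e-27), and GNAO1, a G protein subunit gene, rose from 14.1 ± 2.07 to 23.6 ± 3.22 CPM (0.77, edgeR adjusted p = 1.17e-07). The nearest tested genes were BBS2 on that side, a ciliary protein gene, at 0.14 (edgeR adjusted p = 0.00935), and NUP93 on the other, a nuclear pore protein gene, at -0.28 (edgeR adjusted p = 1.7e-05). These neighbours were looked at after the metallothionein values were known.

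MTF1 and SLC30A1 were both called higher. MTF1 stood at 41.0, 38.1 and 37.4 CPM in shNT and at 52.35, 52.4 and 53.6 CPM in shYES1, with no overlap and a log2 fold change of 0.45 (SE 0.0490), the largest rise among the 25 tested genes. RNA level says nothing of the activity of the factor, which zinc controls on the protein. SLC30A1, the ZnT1 exporter of the cell surface, rose from 126, 119 and 124 CPM to 145, 148 and 147 CPM, again without overlap (0.25, SE 0.0324).

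Of the 10 SLC30A genes 6 were tested, with 1 higher, 3 lower and 2 not called. SLC30A7, whose protein ZnT7 carries zinc into the Golgi, was at 76.0, 72.7 and 71.0 CPM in shNT and at 34.9, 38.9 and 36.9 CPM in shYES1 (log2 fold change -0.99, SE 0.0473). SLC30A5, encoding ZnT5, was at 130.5, 133 and 129 CPM and at 90.1, 87.3 and 89.0 CPM (-0.56, SE 0.0339). SLC30A4, encoding the endosomal ZnT4, was at 9.37, 10.1 and 9.57 CPM and at 5.11, 5.47 and 5.31 CPM (-0.87, SE 0.112). For all 3 genes the shYES1 libraries lay below the shNT libraries. ZnT5 works as a pair with ZnT6 in the early secretory pathway, and the SLC30A6 libraries overlapped, at 51.0, 55.7 and 52.2 CPM in shNT and 52.5, 51.9 and 56.4 CPM in shYES1 (0.03, SE 0.0471). SLC30A9, linked to mitochondrial zinc, was likewise near equal, at 64.3 ± 0.972 and 63.7 ± 2.57 CPM (-0.02, SE 0.0423). SLC30A3, the synaptic vesicle transporter ZnT3, and SLC30A10, chiefly a manganese exporter, were not expressed enough to test.

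Per kilobase of exon, SLC30A5 and SLC30A1 were at like levels in shNT, 22.6 ± 0.365 and 22.5 ± 0.660 CPM per kb. They parted in shYES1, at 15.4 ± 0.240 and 26.8 ± 0.310, so the ratio of SLC30A1 to SLC30A5 went from 0.995 to 1.75. SLC30A6 (9.79 ± 0.452), SLC30A9 (8.90 ± 0.135) and SLC30A7 (8.74 ± 0.307) followed in shNT. SLC30A9 and SLC30A7 differed there by less than the spread of SLC30A7, whereas in shYES1 SLC30A7 stood at 4.41 ± 0.241 and SLC30A9 at 8.82 ± 0.356. SLC30A4 was the lowest of the 6 in both groups, at 1.20 ± 0.0495 and 0.657 ± 0.0224.

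Of the 14 SLC39A genes 11 were tested, with 3 higher, 5 lower and 3 not called. The largest falls were in SLC39A8 and SLC39A14, whose proteins ZIP8 and ZIP14 are close relatives that carry manganese, iron and cadmium besides zinc. SLC39A8 was at 115, 118 and 118 CPM in shNT and at 47.7, 51.2 and 48.4 CPM in shYES1 (log2 fold change -1.26, SE 0.0391). SLC39A14 was at 295, 337 and 307 CPM and at 147, 148 and 148 CPM (-1.08, SE 0.0347). Neither gene's groups overlapped, and the shNT libraries of SLC39A14 were spread more widely than those of shYES1. SLC39A1, encoding ZIP1, a widely expressed importer of the cell surface, was at 129.9, 137 and 130.15 CPM and at 69.2, 74.5 and 70.6 CPM (-0.89, SE 0.0366). Of its 3388 exon bases, 2061 overlap the annotated transcript AL358472.7 on the same strand, so a large part of its reads can have gone uncounted and its level is uncertain.

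SLC39A7, whose protein ZIP7 releases zinc from the endoplasmic reticulum, was the most abundant transporter RNA per kilobase in both groups. It was at 309, 312 and 319 CPM in shNT and at 262, 272 and 259 CPM in shYES1, a small fall without overlap (-0.25, SE 0.0272). SLC39A9, the Golgi protein ZIP9, fell by a like amount, from 78.3 ± 5.14 to 62.8 ± 1.90 CPM (-0.32, SE 0.0434). SLC39A6 was at 171, 168 and 176 CPM in shNT and at 194, 197 and 201 CPM in shYES1, a small rise without overlap (0.20, SE 0.0298). ZIP6, its product, forms a complex with ZIP10 at the cell surface, and SLC39A10 was near equal in the groups, at 49.8 ± 1.75 and 50.5 ± 1.96 CPM (0.03, SE 0.0474). SLC39A3, encoding ZIP3, rose from 10.6 ± 0.574 to 13.5 ± 0.931 CPM (0.35, SE 0.0900), though 436 of its exon bases overlap another transcript on the same strand. SLC39A13, encoding ZIP13 of the secretory pathway, was at 54.3 ± 2.59 and 58.0 ± 0.956 CPM (0.10, SE 0.0452), and its call was lost in 8 of the 15 alternatives run, among them those without shNT sample 3 (0.06), shYES1 sample 2 (0.10) or shYES1 sample 3 (0.09). SLC39A4, the intestinal zinc importer gene (3.74 ± 0.835 and 3.03 ± 0.710 CPM), and SLC39A11 (11.5 ± 1.28 and 10.5 ± 0.353 CPM) were not called.

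Per kilobase of exon the order of the importers in shNT was SLC39A7 (110.2 ± 1.91 CPM per kb), then SLC39A6 (46.6 ± 1.09) and SLC39A14 (45.1 ± 3.11), whose spreads overlap, and SLC39A1 (39.0 ± 1.14). SLC39A8 followed at 18.0 ± 0.273. In shYES1 SLC39A6 was at 53.6 ± 0.901 and SLC39A14 at 21.3 ± 0.0828, so the ratio of SLC39A14 to SLC39A6 went from 0.968 to 0.398. SLC39A8 came down to 7.57 ± 0.285, which differs from SLC39A10 (7.30 ± 0.283) by less than the spread of either, where in shNT it was 2.5 times SLC39A10. Summed over the family, importer RNA was 1228 to 1286 CPM in shNT and 914 to 943 CPM in shYES1, and exporter RNA 451 to 457 and 391 to 399 CPM.

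**Figure D3:**
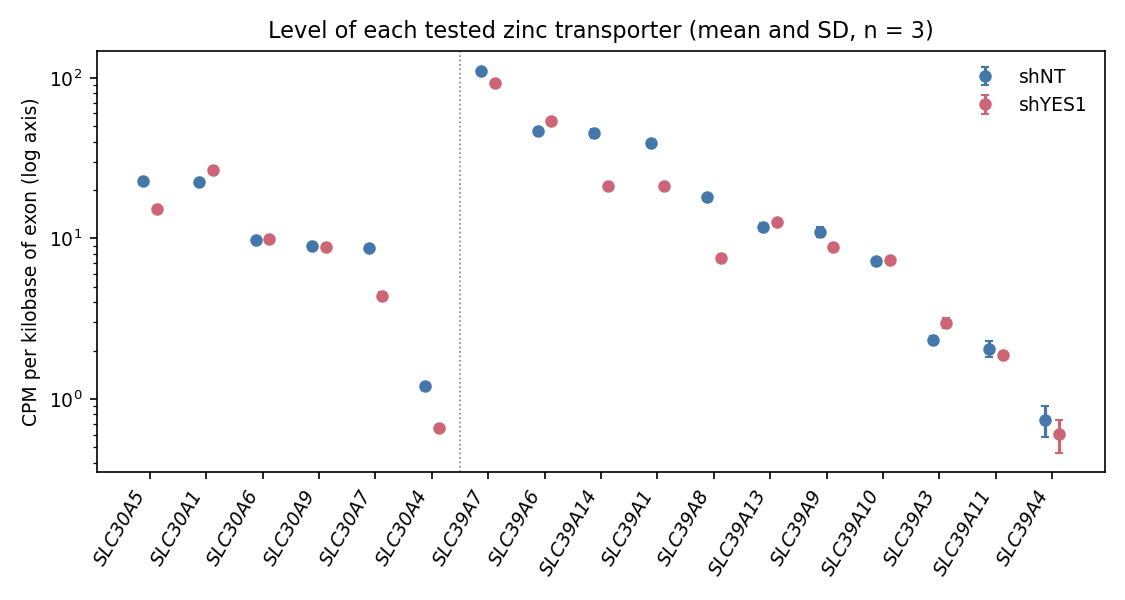
Level of each tested zinc transporter gene in CPM per kilobase of exon (logarithmic vertical axis), with SLC30A genes left of the dotted line and SLC39A genes right of it; points are means and bars SD of 3 libraries, shNT in blue and shYES1 in red. SLC39A7 is highest in both groups, and SLC39A14, SLC39A1, SLC39A8, SLC30A7 and SLC30A4 show the widest gaps between groups.

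**Figure D4:**
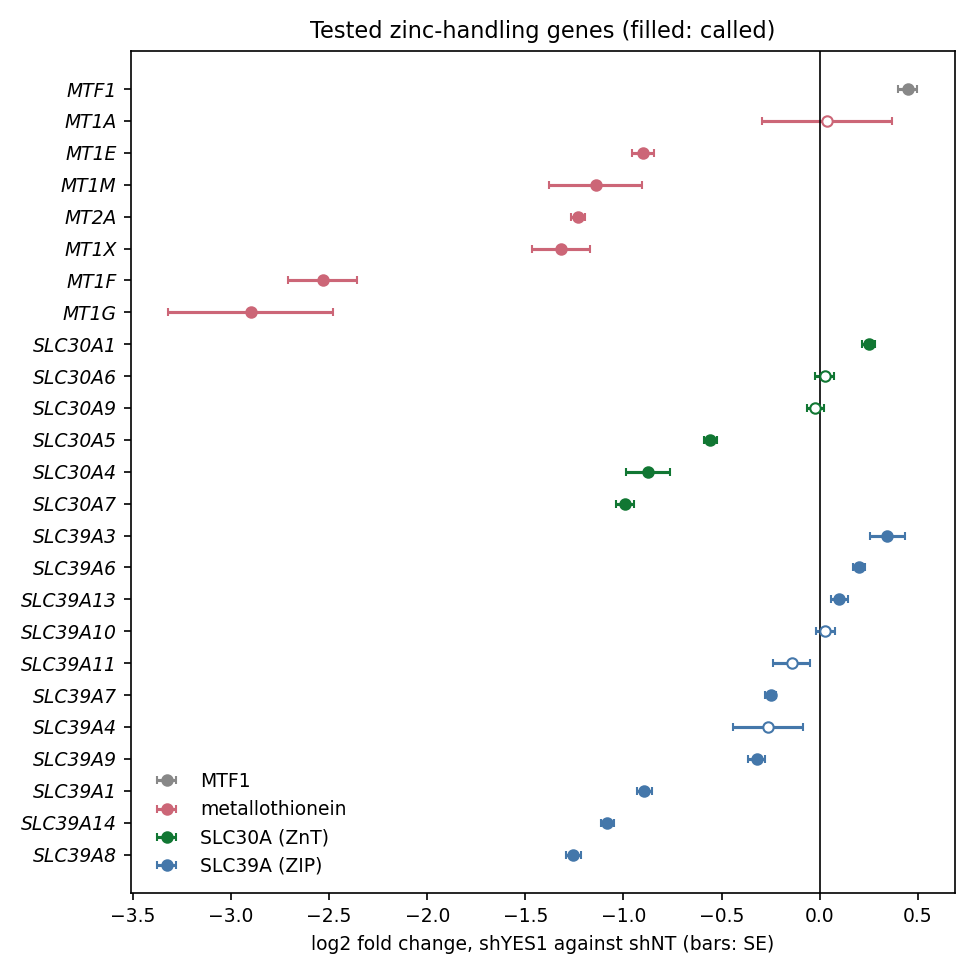
log2 fold change of shYES1 against shNT (horizontal axis, bars SE) for the 25 tested genes, by family; filled points were called. MT1G (-2.90) and MT1F (-2.53) lie farthest to the left, and MTF1 (0.45) farthest to the right.

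An earlier scan of these libraries linked lower RNA in shYES1 to the letters CCTTTC in 3′ UTRs. Of the 25 tested genes 17 carried it in an annotated 3′ UTR, among them SLC39A14, SLC30A7, SLC39A1 and MT1F, called lower, and MTF1, called higher. The 8 without it were MT2A, MT1E, MT1M and SLC39A8, called lower, SLC39A6, called higher, and MT1A, SLC39A4 and SLC39A11, not called. The median log2 fold change was -0.32 for the 17 with it and -0.58 for the 8 without it. Across all tested genes with an annotated 3′ UTR the medians were -0.08 with it (5644 genes) and 0.09 without it (6261 genes). These medians come from the libraries in which the link was found, so they describe it and lend it no support. A longer 3′ UTR has more room for a match, and length was not taken into account. Only annotated 3′ UTRs were searched. The part of this sequence in the falls of genes with or without it was not tested.

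Other metal-handling genes, listed by function, are not among the 33 and were tested in the same fit. These lists too were chosen with earlier results of these data known, so their p-values are a description. Across all tested genes 65.3% were called, 32.5% higher and 32.8% lower. The counts given below for each list were not tested against these shares. In the copper list 6 of 10 tested genes rose, 2 fell and 2 were not called (median log2 fold change 0.28). Among its membrane transporter genes, SLC31A1 and ATP7A fell, SLC31A2 rose and ATP7B was not called. SLC31A1, the copper importer CTR1, fell from 141 ± 2.76 to 71.1 ± 0.700 CPM (-0.99, edgeR adjusted p = 1.61e-28). ATP7A, a copper-exporting ATPase, fell from 63.2 ± 3.87 to 22.0 ± 0.203 CPM (-1.51, edgeR adjusted p = 4.47e-28), though its exons overlap those of PGK1 on the same strand. The largest rises were in genes of intracellular copper use: COX17, a copper chaperone of cytochrome oxidase whose exons overlap those of POPDC2, from 23.7 ± 1.45 to 31.4 ± 1.25 CPM (0.41, edgeR adjusted p = 1.31e-07), and SOD1, the copper and zinc superoxide dismutase, from 120.3 ± 5.50 to 154.7 ± 5.28 CPM (0.36, edgeR adjusted p = 1.21e-12). SLC31A2, a relative of SLC31A1, rose from 17.9 ± 0.378 to 22.5 ± 0.462 CPM (0.33, edgeR adjusted p = 4.56e-05), but with counts that ignore the strand its log2 fold change was -0.02.

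Among 5 tested partners of ZIP8 and ZIP14 in manganese and iron transport, 4 fell and 1 rose (median -0.30). SLC40A1, the iron exporter ferroportin, fell from 2.35 ± 0.205 to 0.992 ± 0.175 CPM (-1.24, edgeR adjusted p = 1.61e-05). The Golgi manganese pump gene ATP2C1 fell from 454 ± 6.99 to 312 ± 8.17 CPM (-0.54, edgeR adjusted p = 3.04e-23), and the Golgi manganese transporter gene TMEM165 fell from 136 ± 4.96 to 110.2 ± 4.15 CPM (-0.30, edgeR adjusted p = 1.33e-10). HFE, the hemochromatosis gene, rose from 55.3 ± 1.64 to 61.4 ± 0.602 CPM (0.15, edgeR adjusted p = 0.00192), a call lost when scaling used only genes without CCTTTC.

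Among other zinc proteins 1 of 7 tested genes rose and the other 6 were not called (median -0.05). MCOLN1, a lysosomal cation channel gene, rose from 15.6 ± 0.381 to 21.9 ± 0.495 CPM (0.49, edgeR adjusted p = 6.6e-08), and exons of PNPLA6 overlap it. TRPM7, a channel kinase permeable to zinc, was at 65.1 ± 1.39 and 65.2 ± 1.87 CPM, and the zinc chaperone gene ZNG1B at 26.7 ± 1.86 and 26.7 ± 2.34 CPM, where the near-identical ZNG1 copies can lose reads. Of 8 listed zinc enzymes of the cell surface 4 were tested, and 2 fell: the carbonic anhydrases CA9, from 55.9 ± 6.18 to 5.06 ± 0.557 CPM (-3.45, edgeR adjusted p = 3.17e-28) and CA12, from 228 ± 4.19 to 173 ± 4.21 CPM (-0.41, edgeR adjusted p = 9.24e-17). The nucleotide-cleaving enzyme genes NT5E (583 ± 17.2 and 585 ± 9.65 CPM) and ENPP1 (33.3 ± 1.27 and 31.4 ± 0.641 CPM) were not called. The zinc-dependent alkaline phosphatases ALPL, ALPP and ALPG were not expressed enough to test.

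Genes that metals and oxidants are known to induce moved in both directions: 7 of 11 tested genes rose, 3 fell and 1 was not called (median 0.27). HMOX1, the heme oxygenase induced by heme and cadmium, rose from 35.6 ± 1.25 to 62.2 ± 1.26 CPM (0.81, edgeR adjusted p = 8.06e-20), and HSPA1B, a heat shock protein gene nearly identical to HSPA1A and so uncertain, from 35.9 ± 1.66 to 50.8 ± 2.34 CPM (0.51, edgeR adjusted p = 4.29e-12). SRXN1, an antioxidant enzyme gene, was called higher, at 1.17 ± 0.184 and 1.82 ± 0.655 CPM (0.70, edgeR adjusted p = 0.0183). Its groups overlap, 2292 of its 2698 exon bases are shared with AL121758.1 on the same strand, and its call was lost with DESeq2 (0.67), without shNT sample 1 (0.59) and without shYES1 sample 3 (0.37). TXNRD1, the cytosolic thioredoxin reductase, fell from 351 ± 7.53 to 154 ± 2.26 CPM (-1.19, edgeR adjusted p = 2.68e-35), and the heat shock co-chaperone gene DNAJB1 (-0.69, edgeR adjusted p = 3.57e-21) and the glutathione synthesis gene GCLM (-0.26, edgeR adjusted p = 2.79e-10) fell.

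**Figure D5:**
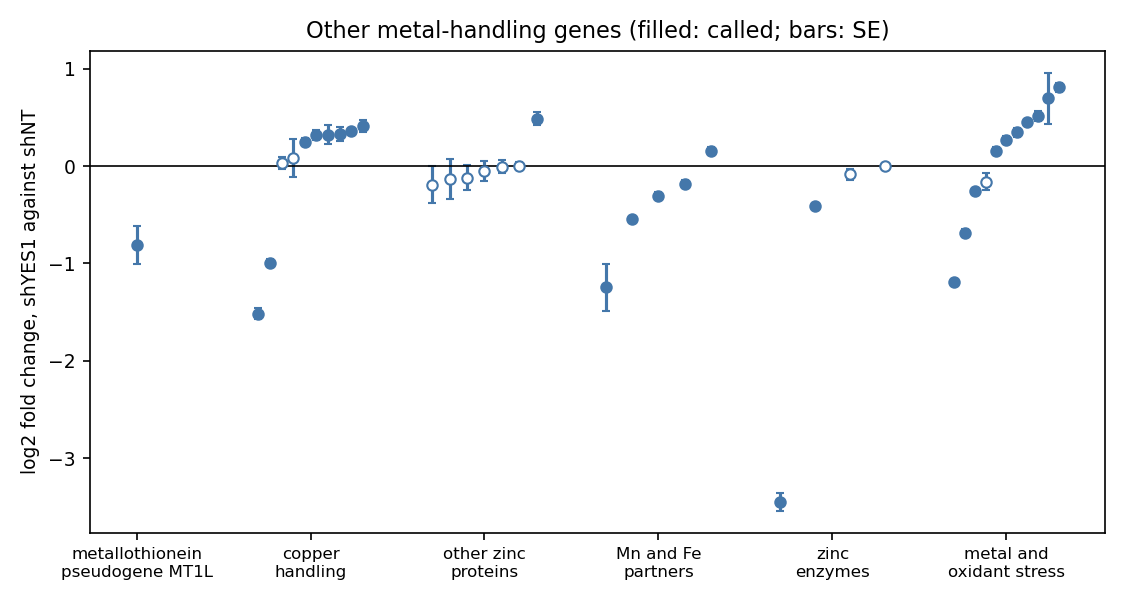
log2 fold change of shYES1 against shNT (vertical axis, bars SE) for the tested genes of 6 lists of other metal-handling genes, 1 column per list; filled points were called. The copper and stress lists have most points above 0, and CA9 lies lowest at -3.45.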

How the data were processed

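RNA from 6 SNU-387 libraries, 3 shNT and 3 shYES1, was analysed. The authors deposited raw counts of reads for each gene identifier. CASAVA 1.8.2, Trimmomatic 0.35, STAR 2.5.1b and the build GRCh38 are named in the submitters' processing notes, and the annotation release is not given there. The reverse-strand column was used, which held 93.5% to 94.0% of stranded gene reads. Entries that name no gene held 19.8% to 20.3% of reads and were left out. Of 58219 identifiers, 57881 were in GENCODE release 29, which gave positions, exon lengths and overlaps. In R 4.3.3, filterByExpr (minimum count 10, total 15), TMM scaling and edgeR 4.0.16's robust quasi-likelihood test compared the groups, with Benjamini-Hochberg adjustment over 14239 genes; the SE is the log2 fold change over the square root of F, an approximation. The steps were tested on simulated data in which only a small share of genes changed. That test does not cover the scaling of data in which most genes are called. No sample number was used as a block, since same-numbered samples did not deviate together. Replicates differed by more than sampling noise (chi-square per degree of freedom 1.15 to 2.19). CPM per kilobase uses the union of annotated exons, which understates genes with a long rare isoform.

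The members and lists were chosen with earlier results of these data known. Per-library values are given for YES1, tested metallothioneins, MTF1 and transporters that changed by at least 0.5 on the log2 scale or were among the 3 highest per kilobase of their family; from other lists up to 3 rises and 3 falls with a mean of at least 1 CPM, otherwise the 2 highest genes. Alternatives were RLE and library-size scaling, DESeq2 1.42.0, limma-voom (limma 3.58.1), 2 other filters, unstranded counts, a replicate block and leaving out each library; TMM factors from genes lacking CCTTTC in their 3′ UTRs were added after seeing the data.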

Additional observations from a re-analysis of the deposited data

Results flagged for a closer look

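Forward-strand reads, which no comparison above uses, were examined at the 33 genes, of which 11 had a mean of at least 10 such reads per library. The groups did not overlap for 3 of them, with shYES1 higher at SLC39A6 and SLC39A9 and lower at SLC30A4. The share of all genes whose groups separate in forward-strand reads was not computed, so this count is a description only. At SLC39A6 forward-strand reads averaged 1.47 ± 0.166 CPM in shYES1 and 0.841 ± 0.285 CPM in shNT (SD, n = 3), from 7 to 26 reads per library. At SLC39A9 they averaged 12.5 ± 0.627 CPM in shYES1 and 11.2 ± 0.809 CPM in shNT, and the nearest libraries were 11.99 and 11.98 CPM. At SLC30A4 they were at 1.45, 1.59 and 1.84 CPM in shNT and at 0.487, 0.513 and 0.460 CPM in shYES1, the widest gap of the 3, from 6 to 29 reads per library.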

How the results depend on the processing

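Of the 19 called members, 18 kept direction and call in all 15 alternatives, DESeq2, limma-voom and each left-out library included. SLC39A13 lost its call in 8, with log2 fold changes from 0.01 to 0.20. Of the 6 members not called, 5 were called in some alternative: SLC30A6 (0.12) and SLC39A10 (0.13) under library-size scaling, SLC30A9 (-0.11) and SLC39A11 (-0.23) when scaled on genes without CCTTTC, and SLC39A4 (-0.41) without shNT sample 1. MT1A was not called in any of the 14 alternatives that tested it. Members called lower numbered 14 to 16 and higher 4 to 7 over the alternatives. Over all genes the balance of calls moved with the scaling, from 4623 higher and 4676 lower to 5799 and 3762 under library size and to 3560 and 5710 on genes without CCTTTC, with median log2 fold changes of 0.0921 and -0.0966. A call or its loss came with a change of sign for TRPM7 under library-size scaling (0.093), for SLC31A2 with unstranded counts (-0.017) and for NT5E when scaled on genes without CCTTTC (-0.088); these 2 scalings shift all genes together. The sign of uncalled members also turned within the alternatives: MT1A ranged from -0.086 to 0.219, SLC30A6 from -0.067 to 0.122, SLC30A9 from -0.114 to 0.075 and SLC39A10 from -0.063 to 0.126. So did the sign of the uncalled list genes ATP7B, SCO1, ZNG1B, ZNG1C, ZNG1E and ENPP1. With the sample number as a replicate block the log2 fold change of YES1 was -2.021, 9297 genes were called, and among members SLC39A13 alone lost its call. Same-numbered samples did not deviate together (correlations 0.0116, 0.0252 and 0.0122), and the sample titles do not say whether they share more than a number. Depth limits MT1A, MT1G and MT1M, with at most 42 reads per library.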
